A study of Drosophila melanogaster with 4 samples.

Results

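The caudal visceral mesoderm (CVM) is a group of embryonic cells in Drosophila melanogaster that arises at the posterior end of the mesoderm, migrates forward along the gut primordium and later forms the longitudinal muscles of the gut. The genes described here are 6 regulators linked to the identity of these cells, namely HLH54F, croc, cpo, zfh1, byn and Mef2, found by exact match of the gene symbol among the 14794 genes of both deposited tables. As background, HLH54F encodes a bHLH transcription factor that specifies the CVM, and croc a forkhead (FoxC) transcription factor expressed in it. The Brachyury-type T-box factor byn acts in the posterior gut primordium and is needed for CVM formation, zfh1 is a zinc finger homeodomain factor of several mesodermal lineages including blood cells, cpo is an RNA-binding protein first known from the nervous system, and Mef2 is a MADS box factor that drives muscle differentiation.

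Gene expression was measured by RNA sequencing in 4 cell populations isolated by flow cytometry, with 1 library each. These were CVM cells and the remaining cells from embryos of stages 10 to 13, and hemocytes (HC, the embryonic blood cells) and the remaining cells from embryos of stages 12 to 16. The sources used here do not give the marker used for sorting, the genotype or the depth of the libraries. One table is named CVM and the other HC, and each sets a condition called q2 against one called q1. No sample label carries either name, so the conditions were not assigned to populations, and each fold is q2 over q1: positive is higher in q2 and negative is higher in q1. The study asked how actively migrating cells differ from the rest of the embryo at matching stages. In such pooled cells, fewer cells of a type and less RNA per cell cannot be told apart.

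With 1 library per population no value has a replicate check. The authors' q-values compare 2 libraries, not conditions, and "called" means a q-value under 0.05 in the authors' deposited table. The standard error printed after ± is the one that the authors' statistic implies, and 95% intervals were made from it. It holds no variation between samples. Its median over measured genes was 0.72 log2 units in the HC table and 0.54 in the CVM table. A gene counts as measured when the authors tested it, its fold is finite, and fold and statistic are not both listed as exactly 0. This held for all 6 regulators in both tables. Tested genes with an infinite fold, 446 in CVM and 345 in HC, are left out of ranks by fold or difference.

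In the CVM table, 0 of the 6 regulators were called higher in q2 and 5 were called higher in q1. Across the table, the authors called 0.728% of 10026 tested genes higher in q2 and 8.23% higher in q1. The regulator not called was byn. The median log2 fold of the 6 was -2.16, beside 0.00 (0.0047) over the 9580 measured genes. At least 2-fold higher in q1 were the same 5 regulators, where 17.6% of measured genes passed that size. These counts describe chosen genes and were not tested.

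HLH54F (FBgn0022740, chromosome 2R, 13644922 to 13648022, build BDGP5) had a log2 fold of -6.04 ± 0.52 in the authors' deposited table for CVM, which is 65.8-fold higher in q1. Its 95% interval ran from -7.05 to -5.03. Of the 9580 measured genes, 33 had a lower fold, and by the size of the authors' statistic HLH54F ranked 6 among them. The 446 tested genes with an infinite fold are not ranked, whichever their direction. Its p-value and q-value are listed as 0 in the authors' deposited table, where 33 genes have a p-value of 0.

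The forkhead gene croc (FBgn0014143, chromosome 3L, 21467135 to 21469656) followed at -2.74 ± 0.49 in the authors' deposited table, 6.69-fold higher in q1, with a q-value of 1.64e-06. zfh1 (FBgn0004606, chromosome 3R, 26591648 to 26612899) had -2.31 ± 0.35 with a q-value of 7.27e-09 in the authors' deposited table. cpo (FBgn0000363, chromosome 3R, 13757595 to 13841501) had -2.01 ± 0.28 with a q-value of 1.13e-10 in the authors' deposited table. These are 4.95-fold and 4.03-fold higher levels in q1. Below croc lay 5.45% of measured genes, below zfh1 7.17% and below cpo 8.94%.

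Mef2 (FBgn0011656, chromosome 2R, 5801001 to 5846313) had the smallest fold of the called regulators and one of the smallest errors of the table. Its log2 fold in the authors' deposited table was -1.73 ± 0.14, 3.32-fold higher in q1, with an interval of -2.00 to -1.46 and a q-value listed as 0 there. Only 14 of the 9580 measured genes had a smaller implied error, and Mef2 ranked 4 by statistic although 1029 genes had a lower fold.

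On the other side of 0 lay byn (FBgn0011723, chromosome 3L, 11924481 to 11928831), at 0.72 ± 0.61 with a q-value of 0.67 in the authors' deposited table. Its interval of -0.47 to 1.92 spans 0, so no difference was detectable for byn with the implied error.

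Ordered by fold, the 6 regulators of the CVM table formed 3 steps. The gap from HLH54F to croc was 3.30 log2 units (interval 1.89 to 4.70) and that from Mef2 to byn 2.45 (1.23 to 3.68). Between croc, zfh1, cpo and Mef2 the gaps were 0.43, 0.30 and 0.28, and each interval spans 0. The order within each neighbouring pair of these 4 is therefore not settled by the implied errors. Gaps between regulators that are not neighbours in the order were not computed for either table.

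**Figure D1:**
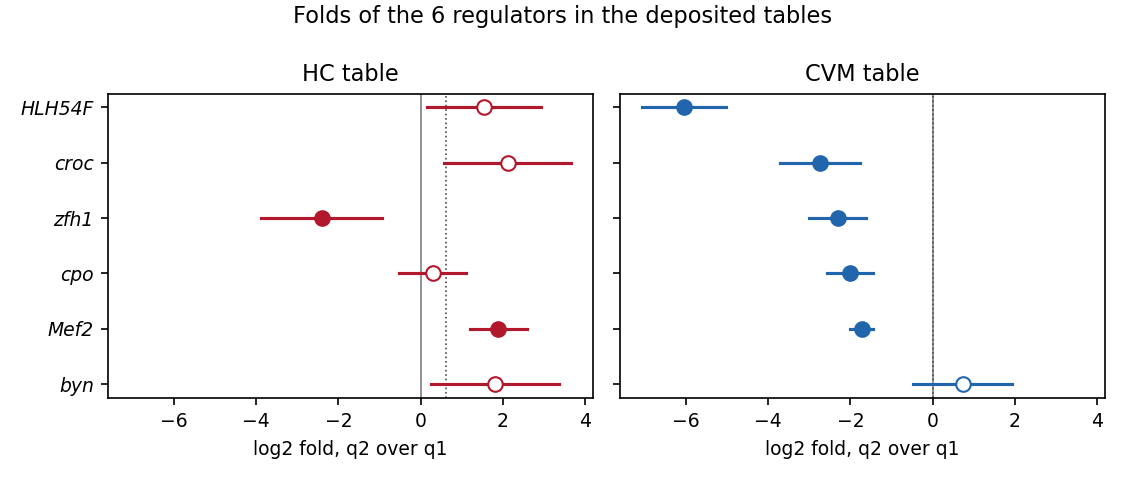
Log2 folds (q2 over q1, x axis) of the 6 regulators in the HC table (left) and the CVM table (right), with 95% intervals from the implied standard error; filled points were called by the authors, the solid line marks 0 and the dotted line the median of measured genes. In CVM 5 regulators lie below 0 with HLH54F at -6.04, and in HC only zfh1 lies below 0.

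In the HC table the regulators were spread in both directions and 2 were called. Mef2 was the 1 of 6 called higher in q2, where the authors called 6.85% of 10749 tested genes, and zfh1 the 1 of 6 called higher in q1, where they called 5.75%. The whole HC table leaned towards q2, and its median over 10088 measured genes was a log2 fold of 0.62. The median of the 6 regulators was 1.68, or 1.06 above that of the table. At least 2-fold higher in q2 were 4 of 6 regulators, beside 35.4% of measured genes, and 1 of 6 was at least 2-fold higher in q1, beside 13.3%.

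Mef2 had 1.89 ± 0.35 and a q-value of 3.79e-06 in the authors' deposited table for HC, which is 3.71-fold higher in q2. Relative to the table's median its fold was 1.27. Its implied error was smaller than that of all but 76 of the 10088 measured genes.

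zfh1 had -2.41 ± 0.75 and a q-value of 0.0169 in the authors' deposited table for HC, 5.31-fold higher in q1. Its interval ran from -3.87 to -0.95, and 4.49% of measured genes had a lower fold. The gap from zfh1 to cpo, the next regulator in the order, was 2.70 log2 units (1.02 to 4.37), whereas the 4 further gaps between neighbouring regulators had intervals that span 0.

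croc, byn and HLH54F had folds above 0 and were not called in HC. Their values in the authors' deposited table were 2.11 ± 0.78 for croc (q-value 0.0536), 1.81 ± 0.79 for byn (0.105) and 1.55 ± 0.71 for HLH54F (0.12). Unadjusted p-values in the authors' deposited table were 0.00701, 0.0226 and 0.0283. Relative to the table's median, these folds were 1.49, 1.19 and 0.93. cpo had 0.29 ± 0.42 with a q-value of 0.675 in the authors' deposited table, and its fold was -0.33 relative to the median.

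Set side by side, the tables gave opposite signs for HLH54F, croc, cpo and Mef2, and the same sign for zfh1 and byn. The tables share no library, but stage, sorted cells and remaining cells all differ between them, and the sources do not say if q1 means the same in each. The differences below are the HC fold minus the CVM fold of the authors' deposited table for each, over 8927 genes measured in both, whose median difference was 0.65. No test over samples is possible for them.

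HLH54F differed most among the regulators, by 7.59 ± 0.87 log2 units, and 17 genes of the 8927 had a larger difference in the authors' deposited tables. croc differed by 4.85 ± 0.93 and Mef2 by 3.62 ± 0.38, with 1.46% and 3.88% of genes above them. For cpo the difference was 2.30 ± 0.50. These 4 intervals lie above 0, also with both tables centred on their medians, where the lowest bound is 0.70 (cpo). byn differed by 1.09 ± 1.0 and zfh1 by -0.10 ± 0.83, with intervals of -0.88 to 3.05 and -1.72 to 1.52 that span 0.

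Mef2 was thus called in opposite directions, and 43 genes in all were called higher in q2 of HC and in q1 of CVM. zfh1 was called higher in q1 of both, as were 168 genes in all. No other regulator was called in both tables.

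**Figure D2:**
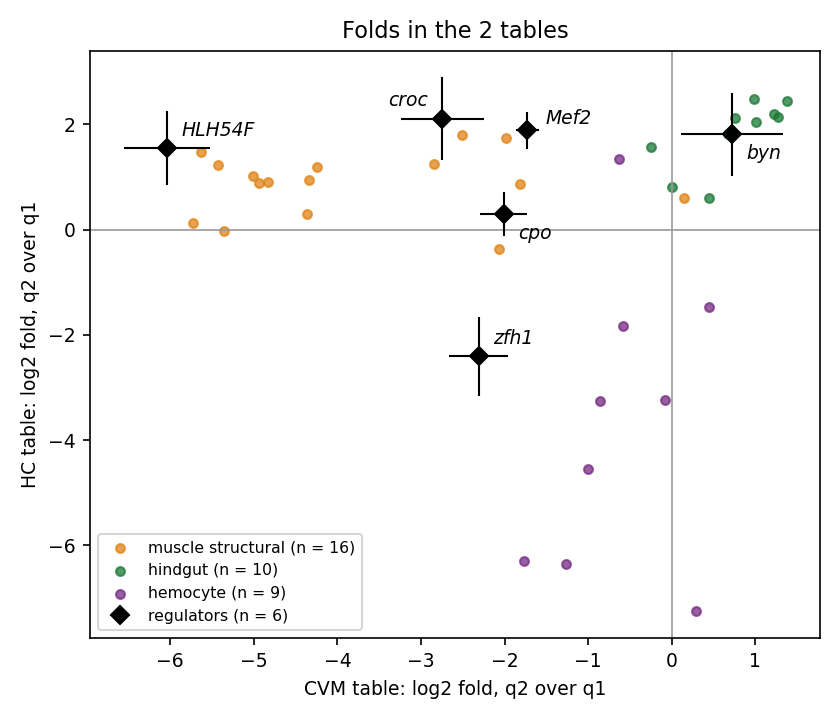
Log2 fold (q2 over q1) in the HC table (y axis) against that in the CVM table (x axis) for the 6 regulators (black, bars are 1 implied standard error), muscle structural genes, hindgut genes and hemocyte markers, all measured in both tables. HLH54F, at -6.04 in CVM, lies to the left of all plotted muscle genes (lowest Mhc, -5.73). Its HC fold of 1.55 is inside their range. byn lies within the range of the hindgut genes in both tables, but many genes outside that list also lie close to byn. zfh1 alone of the regulators lies below 0 in both.

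The regulators were next read beside genes of the tissues in which they are known to act. For all list counts below, the shares of all tested genes called by the authors apply as background. In HC these were 6.85% higher in q2 and 5.75% higher in q1, and in CVM 0.728% and 8.23%. The lists hold chosen genes, and their counts were not tested. In CVM, 0 of 17 muscle structural genes, which encode myosin, actin, tropomyosin, troponin and other sarcomere proteins, were called higher in q2 and 16 were called higher in q1. Their median was -4.36, and each of the 16 lay below Mef2 (-1.73), while none lay below HLH54F (-6.04). Examples in the authors' deposited table for CVM were the myosin heavy chain gene Mhc at -5.73 and the troponin C gene TpnC47D at -5.63. In HC, 0 of 16 measured genes were called in either direction, with a median of 0.92 and a range from -0.37 to 1.81. Mef2 itself was called there at 1.89 ± 0.35 in the authors' deposited table. The actin gene Act57B, at the top of that range, had a similar fold with a larger implied error, 1.81 ± 0.90. The part of muscle cells in the folds of the regulators was not tested.

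FGF signalling guides the migrating CVM, and in CVM, 0 of 5 of its genes were called higher in q2 and 3 higher in q1. The receptor gene htl had -1.93, its adaptor stumps -1.23 and the phosphatase gene csw -1.57, all called higher in q1 in the authors' deposited table, and csw shares its locus with another gene. The ligand genes pyr (0.81 ± 0.52) and ths (0.60 ± 0.51) were not called in the authors' deposited table. A difference between these roles was not tested. In HC, 1 of 5 was called higher in q2, htl at 1.47 in the authors' deposited table, and 0 in q1. Of the genes listed as CVM markers (htl, stumps and the regulators HLH54F, croc and cpo), 5 of 5 were called higher in q1 of CVM, beside 8.23% of tested genes. The calls of these regulators were already counted above, and q1 was not assigned, so this is no independent check of the table's name. The marker list was chosen with earlier results known and does not hold byn, pyr or ths, which were not called.

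On the hindgut list, whose genes act beside byn in that tissue, 7 of 10 were called higher in q2 and 0 higher in q1 of HC, against 4 and 0 of CVM. Medians were 2.09 in HC and 0.87 in CVM. Across all tested genes, the authors called 6.85% higher in q2 of HC and 0.728% higher in q2 of CVM. The count in HC was not particular to the hindgut list, as 8 of 10 heart genes were also called higher in q2 there. The zinc finger gene drm had 2.45 in HC and 1.38 in CVM, and the Sox gene D had 2.20 and 1.23, all called in the authors' deposited tables. The homeobox genes en (2.13 in HC and 1.27 in CVM) and Dr (2.48 and 0.98) were called in the authors' deposited tables, Dr only in that for HC. For byn the folds were 1.81 in HC and 0.72 in CVM, neither called.

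Among 11 determinants of the posterior end and the mesoderm, 7 were called higher in q2 and 0 higher in q1 of the HC table, and 3 and 1 in the CVM table. The 1 was cad, a posterior homeodomain factor, at -1.92 in CVM, and it was called at 1.79 in HC in the authors' deposited tables. twi, the bHLH factor that sets up the mesoderm, had 2.31 (called) in HC and 0.09 (not called) in CVM in the authors' deposited tables. This list shares bowl, drm, lin and D with the hindgut list.

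For zfh1, known also from blood cells, the hemocyte markers gave 0 of 10 called higher in q2 and 6 called higher in q1 of the HC table, with a median of -3.25 over 9 measured markers, and 0 and 3 in the CVM table, with a median of -0.63. srp, the GATA factor of blood cells, had -3.25 in HC and -0.86 in CVM, and Sr-CI, a scavenger receptor, -6.29 and -1.77, all called in the authors' deposited tables. Pxn, a peroxidasin at a locus shared with another gene, had -6.35 and -1.26, called in both of the authors' deposited tables. lz, a Runx factor of crystal cells, had -7.25 (called) and 0.29 (not called) in the authors' deposited tables. Without markers at shared loci, 5 were measured in each table, of which 4 were called higher in q1 of HC and 2 of CVM. The 9 markers measured in CVM ranged from -1.77 (Sr-CI) to 0.45 (gcm), and those in HC from -7.25 (lz) to 1.34 (Hml). Hml, gcm, ush and nimC1 were called in neither table. The part of hemocytes in the folds of zfh1 was not tested.

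For cpo, known also from neurons, 5 of 10 neuronal genes were measured in the CVM table, of which 0 were called higher in q2 and 1 higher in q1, the RNA-binding protein gene Rbp9 at -2.20 in the authors' deposited table, at a locus shared with another gene. In HC, 3 of 7 measured neuronal genes were called higher in q2, and 0 in q1. CadN, a cadherin of axons, had 1.79 and fne 1.78 in HC, both called in the authors' deposited table, beside 0.29 for cpo, which was not.

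For the trunk visceral mesoderm, on which the CVM migrates, 7 of 10 genes were called higher in q2 and 0 higher in q1 of HC (median 2.05), and 0 and 3 of CVM (median 0.03). Without genes at shared loci, 1 was called higher in q1 of CVM, whose median was then 0.27. The FoxF gene bin had 2.06 in HC and -2.29 in CVM, both called in the authors' deposited tables. The ubiquitin ligase gene mib2 had -1.76 (called) in CVM, and in HC jeb, the ligand of Alk, had 2.86 and the homeobox gene tin 2.53, both called in the authors' deposited tables. Myoblast identity and fusion genes gave 6 of 11 called higher in q2 and 0 in q1 of HC, and 0 and 2 of CVM. Without genes at shared loci, 2 were called higher in q2 of HC and 1 higher in q1 of CVM. The fusion genes sing (2.38 in HC and -1.88 in CVM) and rols (1.59 and -0.98) were called in both of the authors' deposited tables. nau, the MyoD relative, had 2.63 and the zinc finger gene lmd 2.55 in HC, both called in the authors' deposited table. Of 10 heart genes, 8 were called higher in q2 of HC and 0 in q1, against 2 in each direction of CVM. The homeobox gene lbe had 4.81 ± 1.57 in HC (called) in the authors' deposited table. tup, a LIM homeodomain factor of the heart, had 1.65 in HC and 1.27 in CVM, called in both of the authors' deposited tables. pnr, a GATA factor, had -1.13 (not called) in HC and 1.14 (called) in CVM in the authors' deposited tables.

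Each DNA-binding regulator was then compared with relatives of its own protein family. Of all tested genes, the authors called 6.85% higher in q2 and 5.75% higher in q1 of HC, and 0.728% and 8.23% of CVM. The family counts were not tested against these shares. Among 18 other bHLH genes measured in CVM (class II, and the class I gene da), 0 were called higher in q2 and 1 higher in q1. That gene, Fer1, had -2.83 in the authors' deposited table, and the median of these 18 was 1.02, or 0.64 over the 13 with a locus of their own. HLH54F, at -6.04, lay below Fer1, its lowest relative. In HC the median of 15 relatives was 1.95, and 5 were called higher in q2, led by amos at 3.32 and nau at 2.63 in the authors' deposited table. HLH54F, at 1.55, was inside their range of 0.64 (da) to 3.32 (amos).

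In the forkhead family, 1 of 14 measured relatives of croc was called higher in q2 of CVM and 2 higher in q1. These were slp2, a segmentation gene, at 1.42, and bin at -2.29 and the insulin pathway gene foxo at -2.28 in the authors' deposited table. croc itself had the lowest fold measured in the family, -2.74 ± 0.49 in the authors' deposited table, close to bin (error 0.43) and foxo (error 0.49). Its order against these 2 was not tested. In HC 7 of the 14 were called higher in q2, among them fd64A at 2.58 and fd96Cb at 2.54, and 1 higher in q1, foxo at -2.40 in the authors' deposited table.

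T-box relatives of byn gave 0 of 6 measured genes called higher in q2 of the CVM table and 2 higher in q1, Doc2 at -2.09 and Doc1 at -1.89 in the authors' deposited table. In HC 5 of 7 were called higher in q2 and 0 in q1, among them mid at 2.31 and Doc3 at 2.25 in the authors' deposited table, while byn, at 1.81, was not called. zfh2, the relative of zfh1, was called in neither table and had 0.79 in HC and 0.33 in CVM in the authors' deposited tables. bs, the other MADS box gene, had -0.13 and -0.57 and was called in neither of the authors' deposited tables.

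**Figure D3:**
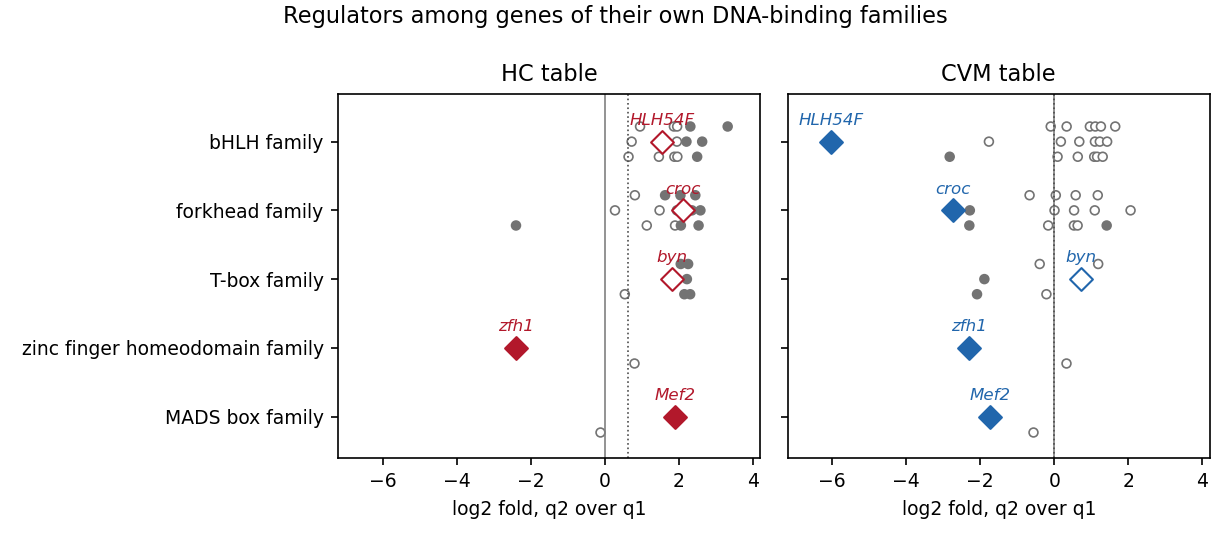
Log2 folds (q2 over q1, x axis) of the regulators (diamonds) and of relatives in the same DNA-binding family (circles) in the HC table (left) and the CVM table (right); filled symbols were called by the authors, the solid line marks 0 and the dotted line the table's median. HLH54F and croc lie at the low end of their families in CVM and inside them in HC.

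Genes directly beside the regulators on the chromosome were read in the same way. CG6385 (now Sardh), 998 bp before HLH54F, had -3.37 in HC and -4.42 in CVM and was called higher in q1 in both of the authors' deposited tables. In HC it thus lay on the opposite side of 0 from HLH54F. The lysosomal sterol-binding gene Npc2h, 19637 bp before zfh1, had -3.99 in HC and was called in the authors' deposited table. In CVM its fold was -5.51 ± 3.87 and it was not called in the authors' deposited table. No other flanking gene described here was called in either table, and 4 genes (Neu2, Rim, CG5718 and CG14126) went untested in at least 1 table.

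**Figure D4:**
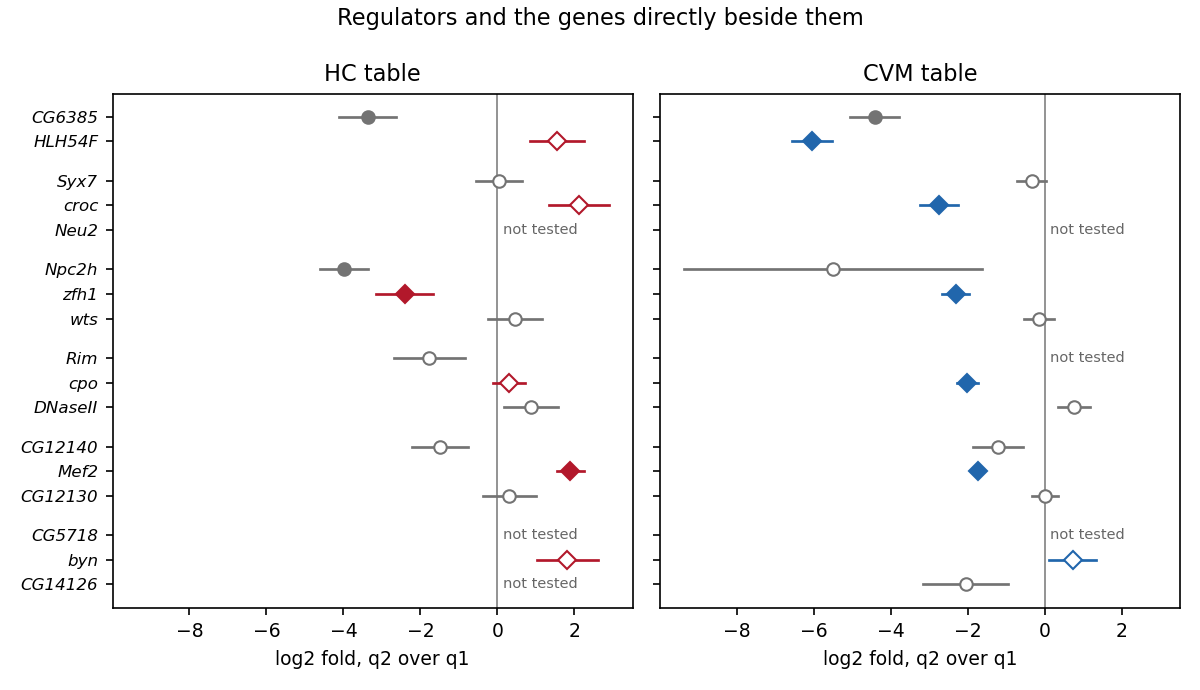
Log2 folds (q2 over q1, x axis) of each regulator (diamonds) and of genes directly beside it on the chromosome (circles) in the HC table (left) and the CVM table (right), with bars of 1 implied standard error and filled symbols for genes called by the authors. CG6385 lies below 0 in both tables, while HLH54F does so in CVM only.

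In the deposited tables no other gene overlaps the span of a regulator. The current Ensembl annotation, of another build, gives all 6 a span of another length. There cpo has another identifier and spans 99061 bp, against 83907 bp in the tables, with 12 transcripts. byn spans 8227 bp, against 4351 bp, and overlaps CG44837 on the other strand, and zfh1 overlaps an antisense RNA. The sources used here do not say whether counting used strand, so reads from such overlaps cannot be told apart.

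The genes nearest to each regulator in the plane of both folds were found among genes with the same calls. Over 2 comparisons this likeness is a description only. For HLH54F they were TpnC47D (distance 0.42 log2 units), bru-3 (0.47, at a shared locus) and CG5001 (0.49), and just these 3 of 536 genes with the same calls lay within 0.5. For croc they were CG2052 (0.05), the bHLH gene Fer1 (0.18) and mtrm (0.20, shared locus), and for cpo CG11658 (0.14), CG42354 (0.17) and Kr-h1 (0.17). zfh1 lay nearest to foxo (0.03), which had -2.40 in HC and -2.28 in CVM in the authors' deposited tables, then to Spn27A (0.13, shared locus) and the lipid droplet gene Lsd-2 (0.22). Mef2 lay nearest to CG14207 (0.13), CG4096 (0.14) and CG7224 (0.21), of which the last 2 share their loci. byn, called in neither table, had 703 genes within 0.5, and the nearest were CG4576, CG1785 (both at shared loci) and CG11875 (each 0.02).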

How the data were processed

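RNA sequencing of 4 sorted populations, 1 library each, was analysed from 2 gene tables in Cuffdiff's layout. Cuffdiff, Cufflinks 1.3.0, TopHat 1.3.3 and Bowtie 0.12.7 are listed in the submitters' processing notes, with build BDGP5. The annotation release and depth are not given in the sources used here. Per the file headers, the deposited folds are log2 for CVM and natural log for HC. HC folds were converted to log2, and entries standing for infinite folds were dropped. Every p-value, q-value and test statistic (a score) was computed by the authors. In HC 568 q-values exceed 1, so that column was also read as a score as deposited. The 4 per-condition columns of FPKM matched no sample label and were not used, apart from 1 look at them to check the direction of the folds. Those columns hold levels for q1 and q2, but the levels of the regulators are not given here. A fold that rests on low values can therefore not be recognised from the values printed.

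The deposited statistic has the opposite sign to the fold, and the implied standard error is the absolute value of the log2 fold divided by the statistic. Measured genes have status OK, a finite fold and a nonzero statistic, and 316 HC genes of status OK with fold and statistic of 0 were left out. No test of differences was run here. Members and lists were chosen with earlier results of these data known. Of the listed names, 5 were matched through current names or synonyms, 3 repeats were dropped and 3 had no match. Named genes are the 6 members, up to 2 called genes per list, table and direction, family relatives, the genes beside each member, and the 3 nearest genes by Euclidean distance. Some further list genes (stumps, pyr, ths, srp, gcm and Hml) were named after their values were seen, and 1 gene that the rule names is not reported here. Scripts used Python 3.11.15, pandas 2.3.3 and scipy 1.17.1, and were tested on simulated data. Alternatives were centring, other thresholds, recomputed Benjamini-Hochberg values and genes with a locus of their own.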

Additional observations from a re-analysis of the deposited data

Results flagged for a closer look

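For 4 regulators the folds of the tables lay on opposite sides of 0 and the interval of their difference did not reach 0. The difference, HC fold minus CVM fold, was 7.59 log2 units for HLH54F, 4.85 for croc, 2.30 for cpo and 3.62 for Mef2. It was not tested, because each condition has 1 library and the roles of q1 and q2 are not given. HLH54F, croc and cpo were not called in HC (q-values 0.12, 0.0536 and 0.675 in the authors' deposited table). Of the 4, only Mef2 was called in both tables. The HC fold of cpo changes sign after centring.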

How the results depend on the processing

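No paired analysis was possible because each population has 1 library, and no replicate could be left out. Centring each table on its median kept every called regulator on its side of 0. In HC the centred fold of cpo was -0.33 in place of 0.29 and that of Mef2 1.27 in place of 1.89. The HC minus CVM difference became 1.69 for cpo and 3.01 for Mef2, since the HC median of 0.62 is removed. The other centred folds and differences moved by less than their implied standard error. With a q-value under 0.01, 0 regulators were called higher in q1 of HC in place of 1 (zfh1, q-value 0.0169). Benjamini-Hochberg values recomputed from the authors' p-values gave the same counts of called regulators, although croc in HC came close at 0.052. At 1.5-fold, 1 regulator (byn) passed on the q2 side of CVM in place of 0, and no other count of regulators changed by over 1.5 times at 1.5-fold, at 3-fold or after centring. Of 56 list counts by size, 6 changed by over 1.5 times after centring. With genes that share a locus left out, 12 of 112 list counts did, all of them lower. Among these were myoblast genes called higher in q2 of HC (2 in place of 6), and trunk visceral mesoderm genes called higher in q1 of CVM (1 in place of 3). The depth of the libraries is unknown, so no limit of detection can be given.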
